A study of Rattus norvegicus with 4 samples.

Results

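Neurofilament and neuronal microtubule genes were followed across 4 rat spinal dorsal horn arrays. The 10 genes were the neurofilament genes Nefl, Nefm and Nefh, the related intermediate filament genes Ina and Prph, and the microtubule genes Tubb3, Stmn2, Map2, Mapt and Eml1. They were found through the accession of each probe, which matched 12 of 30367 probes. All 10 are among the 22817 genes compared, with Stmn2 and Mapt each measured by 2 probes and the other genes by 1 probe. The rule did not use the measured values.

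The oxaliplatin group was male rats aged 6 weeks given oxaliplatin, a platinum chemotherapy drug with a painful neuropathy among its side effects, and the vehicle group was male rats of the same age given its vehicle. Dorsal horn tissue, the sensory part of the spinal cord, was taken on day 10 and its total RNA was hybridised to Agilent 2-colour arrays, 2 per group, which the labels call biological replicates. By the labels every array carried RNA of a treated group in the Cy5 channel and RNA of untreated male rats, also aged 6 weeks, in the Cy3 channel, so that dye and sample cannot be told apart in the ratio. The extract protocol as given breaks off after mentioning Cy3 and names no second dye, so the reading of each ratio as treated over untreated rests on the channel labels. Strain, dose, vehicle and whether animals were pooled are not given in the sources used here.

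Neurofilaments are the intermediate filaments that fill large axons. They assemble from the light, medium and heavy chains together with α-internexin in central neurons and peripherin in peripheral and motor neurons. Axonal and dendritic microtubules are built from tubulins, including the neuronal β-tubulin of Tubb3, and are bound by tau in axons and by Map2 mainly in dendrites. Stathmin-2 regulates microtubule dynamics in growing and regenerating axons. In the dorsal horn local neurons are a source of such RNAs, while the axons that enter from the dorsal root ganglion belong to cell bodies outside the cord. Which cells gave the RNA measured here was not tested.

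Both oxaliplatin arrays lay on one slide and both vehicle arrays on another, so slide and group cannot be told apart. By the scan dates in the file headers, the oxaliplatin arrays shared a scan, while each vehicle array had a different one. Scan and group therefore cannot be told apart either. The median spot signal above background in Cy5 was 931.5 and 959 on oxaliplatin arrays 1 and 2, against 850 and 883.5 on vehicle arrays 1 and 2. In Cy3 it was 451.5 and 245.5 on the oxaliplatin arrays, against 521 and 489 on the vehicle arrays, so oxaliplatin array 2 had the dimmest Cy3 channel. All 12 probes were well above background in both channels on all 4 arrays, and the precision is limited by the number of arrays. Tissue was measured in bulk, so fewer cells of a type and less RNA per cell cannot be told apart.

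Ratios below are log2 of Cy5 over Cy3 after loess, where 0 means equal signal and 1 a doubling, and tests are limma fits adjusted over all 22817 genes with 0.05 as the threshold. Of the 10 genes, 0 passed for oxaliplatin minus vehicle, where 0% of all genes passed. Over all genes 930 passed without oxaliplatin array 1, 15 without oxaliplatin array 2, 33 without vehicle array 1 and 2 without vehicle array 2, and of the 10 genes Eml1 alone passed, without vehicle array 2. For Cy5 over Cy3 on all arrays 6 of the 10 passed, where 55.6% of all genes passed. Of these 5 were higher, where 29.3% of all genes were, and 1 was lower, where 26.3% were. Peripherin, Tubb3 and Stmn2 had mean ratios above 1, a size reached by 3.59% of all genes. The median of the 10 mean ratios was 0.28, beside 0.03 over all genes.

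**Figure D1:**
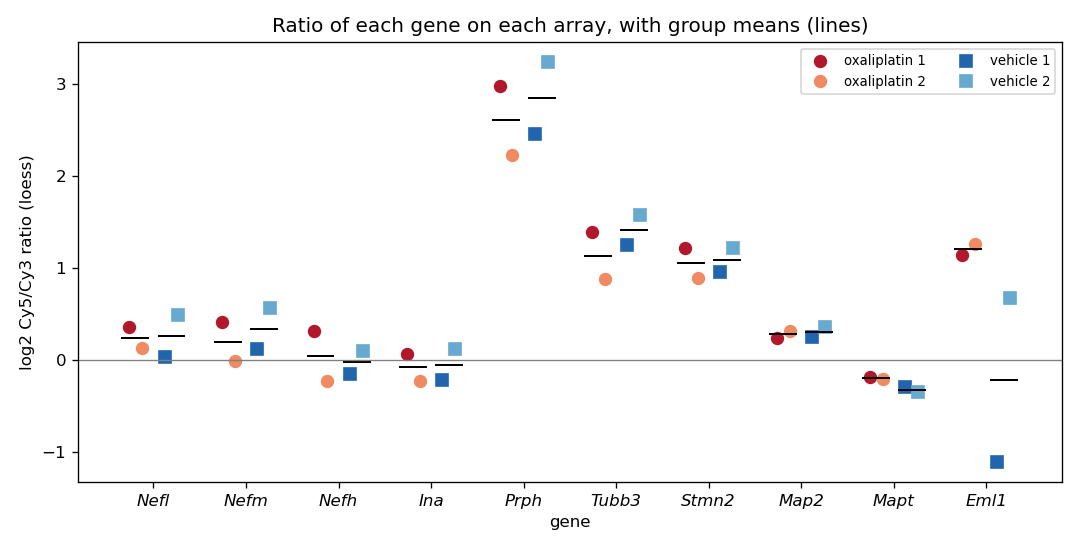
Log2 Cy5/Cy3 ratio of the 10 genes on each array, with circles for the 2 oxaliplatin arrays, squares for the 2 vehicle arrays and lines for group means. Prph lies above 2 on all 4 arrays, and Eml1 has the widest spread, with vehicle array 1 at -1.11.

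The promoters of Prph and Tubb3, which had the highest ratios of the 10 genes, and of Ina, whose ratio was near 0, are shown for comparison. They are the 250 bases before the start site, from a set of RefSeq promoters that held 5 of the 10 genes. Capitals mark TATAA (the TATA box) and GGGCGG (the GC box) on either strand.
Prph promoter, chr7:132097039-132097288, GRCr8, + strand: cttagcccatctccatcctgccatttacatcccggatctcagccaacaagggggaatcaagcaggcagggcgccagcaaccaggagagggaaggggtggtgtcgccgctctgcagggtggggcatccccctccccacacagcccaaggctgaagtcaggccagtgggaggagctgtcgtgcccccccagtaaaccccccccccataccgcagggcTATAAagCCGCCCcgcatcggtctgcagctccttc
Tubb3 promoter, chr19:68365437-68365686, GRCr8, + strand: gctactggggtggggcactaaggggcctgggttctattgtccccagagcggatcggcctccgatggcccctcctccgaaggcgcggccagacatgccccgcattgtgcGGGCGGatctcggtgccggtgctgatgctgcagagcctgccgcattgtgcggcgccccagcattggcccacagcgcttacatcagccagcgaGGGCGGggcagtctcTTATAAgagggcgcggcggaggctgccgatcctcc
Ina promoter, chr1:255837879-255838128, GRCr8, + strand: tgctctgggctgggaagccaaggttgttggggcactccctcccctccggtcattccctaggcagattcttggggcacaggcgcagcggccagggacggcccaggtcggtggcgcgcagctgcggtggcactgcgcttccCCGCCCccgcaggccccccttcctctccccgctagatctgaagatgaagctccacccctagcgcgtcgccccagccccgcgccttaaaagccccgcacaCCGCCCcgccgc
In Prph, TATAA began 35 bases before the start and GGGCGG stood on the minus strand at 28 bases. In Tubb3, TATAA stood on both strands in overlapping positions at 34 and 35 bases, with GGGCGG at 142 and 50 bases. Ina had no TATAA in this window and had GGGCGG on the minus strand at 111 and 12 bases. Among 33469 rat promoters of the same length, 23.97% held TATAA and 30.5% held GGGCGG on either strand. The promoters shown were picked by ratio and the others available are not shown, so a link between motif and ratio was not tested.

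Under loess the neurofilament triplet had mean ratios of 0.25 (Nefl), 0.27 (Nefm) and 0.01 (Nefh), and no difference between groups passed. With median centring in place of loess all 10 genes were called higher in Cy5. The mean ratios of the triplet were then 0.84 (Nefl), 1.07 (Nefm) and 0.57 (Nefh). Nefl, the light chain on which the filament is built, had ratios of 0.36 and 0.13 on the oxaliplatin arrays, against 0.04 and 0.49 on the vehicle arrays. The vehicle values enclosed both oxaliplatin values, and oxaliplatin minus vehicle was -0.02 ± 0.18 (SE; limma adjusted p = 0.972). Its mean ratio over all arrays was 0.25 ± 0.09 (SE), or 1.19-fold, which passed narrowly (limma adjusted p = 0.0468). Without oxaliplatin array 1 or vehicle array 2 the mean ratio was 0.19 or 0.14 and did not pass (limma adjusted p = 0.132 and 0.288).

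Nefm encodes the medium chain and was printed as 10 spots on each array. Its ratios were 0.41 and -0.01 on the oxaliplatin arrays, against 0.12 and 0.56 on the vehicle arrays, again with overlapping groups. Within an array the 10 spots differed with an SD of at most 0.062, far less than the arrays did (SD 0.26 over 4 arrays). Oxaliplatin minus vehicle was -0.14 ± 0.20 (SE; limma adjusted p = 0.767). The mean ratio of 0.27 ± 0.10 (SE) missed the threshold (limma adjusted p = 0.0546), and passed without oxaliplatin array 2 or vehicle array 1, at 0.38 in both cases (adjusted p = 0.0113 and 0.0193).

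Nefh, the heavy chain with the long phosphorylated tail that spaces filaments, had ratios of 0.32 and -0.23 on the oxaliplatin arrays, against -0.15 and 0.10 on the vehicle arrays. Each group had an array on either side of 0. The difference was 0.07 ± 0.20 (SE; limma adjusted p = 0.899) and the mean ratio 0.01 ± 0.10 (SE; limma adjusted p = 0.928). Ina, the α-internexin of central neurons, was alike, with ratios of 0.07 and -0.23 on the oxaliplatin arrays and -0.22 and 0.12 on the vehicle arrays. The difference for Ina was -0.03 ± 0.17 and its mean ratio -0.06 ± 0.08 (SE; limma adjusted p = 0.952 and 0.540).

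Oxaliplatin array 1 and vehicle array 2 gave the higher ratio within their group for all 3 chains. The same order was found for 7 of the 10 genes, and for 29.1% of all genes. The mean ratio of the 3 chains was 0.36 and -0.04 on oxaliplatin arrays 1 and 2, against 0.0043 and 0.38 on vehicle arrays 1 and 2. The 5 named genes outside the set with the nearest ratios, by root mean square distance over the 4 arrays, were Slbp (0.045), Opn4 (0.055), Pfn1 (0.055), Alms1 (0.062) and Bbc3 (0.063). Nefl and Nefm themselves lay at 0.098 and 0.11 from that mean, and Nefh at 0.19.

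Peripherin (Prph), the intermediate filament of peripheral sensory and motor neurons, had the highest ratio of the 10 genes. Its signal above background in Cy5 was 45697 and 47871 on the oxaliplatin arrays, against 46880 and 53456 on the vehicle arrays. In Cy3 it was 2380 and 2298 on the oxaliplatin arrays, against 4420 and 2551 on the vehicle arrays. The ratios were 2.98 and 2.23 on the oxaliplatin arrays, against 2.46 and 3.24 on the vehicle arrays. Both groups thus held Cy5 signals many times the Cy3 signals, vehicle as well as oxaliplatin. The mean ratio was 2.73 ± 0.16 (SE), or 6.62-fold (limma adjusted p = 2.7e-05). The groups overlapped, with a difference of -0.24 ± 0.31 (SE; limma adjusted p = 0.748). Within each array the Prph ratio exceeded the mean of the 3 neurofilament chains by 2.62 and 2.27 (oxaliplatin) and by 2.45 and 2.85 (vehicle).

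Markers of dorsal root ganglion neurons moved in the direction of Prph. All 11 measured of 12 listed were higher in Cy5 (10 with median centring), where 29.3% of all genes were (33.6% with median centring). Tac1 also stands in the dorsal horn excitatory list, and Isl1 in the motor neuron list. The median mean ratio of the 11 markers was 3.0. Their array medians were 2.92 and 3.03 on the oxaliplatin arrays, against 2.89 and 3.16 on the vehicle arrays. Avil, an actin-binding protein of sensory neurons, had a mean ratio of 4.91 ± 0.09 (SE). The lowest marker, Mrgprd, had 0.20 ± 0.06 (SE) and lay near the floor, at the 0.27th percentile of signal. Before normalisation the summed signal of these markers in Cy5 was 344600 to 358778 on the oxaliplatin arrays and 314574 to 326855 on the vehicle arrays. In Cy3 it was 14563 to 24735 on the oxaliplatin arrays and 19008 to 28443 on the vehicle arrays. Cy5 was the brighter channel by median spot signal on every array, which also raises these sums. None of the 11 was below background on all arrays in either channel.

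Schwann cell markers showed the same direction for 7 of 10, with 3 of 10 lower (0 with median centring) and a median mean ratio of 2.54. Over all genes 29.3% were higher and 26.3% lower under loess. The 3 lower were Mbp (-1.08), S100b (-0.96) and Sox10 (-0.52), and Mbp and Sox10 also stand in the oligodendrocyte list. Mbp and S100b are bright, at the 99.7th and 99.1st percentile of signal, and weigh heavily in the sums that follow. Before normalisation the summed Schwann list had 307875 to 353113 in Cy5 on the oxaliplatin arrays and 273721 to 291332 on the vehicle arrays. In Cy3, the dimmer channel, it had 72330 to 116922 on the oxaliplatin arrays and 148313 to 163303 on the vehicle arrays. Of the motor neuron list, which holds Prph itself, 2 of 6 measured genes were higher (Prph and Isl1, a factor shared with sensory neurons) and 4 were lower. Among the lower was Slc18a3, the vesicular acetylcholine transporter, at -1.04 ± 0.12 (SE). Chat (-0.20) and Mnx1 (-0.16), also lower, were dim, at the 15.7th and 15.3rd percentile of signal. Motor neuron medians were -0.13 and -0.25 on the oxaliplatin arrays, against -0.19 and -0.15 on the vehicle arrays. Per the labels the tissue is dorsal horn, and neither the dissection nor the assignment of RNA to channels could be checked here. The part of these cell types in the Prph, Tubb3 and Stmn2 ratios was not tested.

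**Figure D2:**
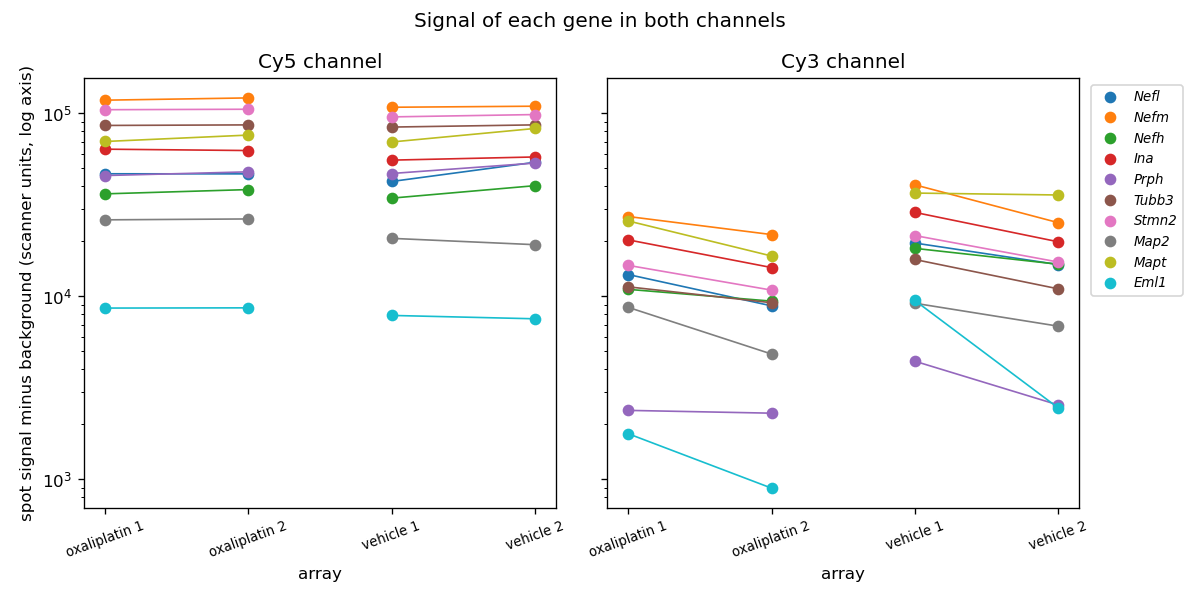
Spot signal above background of each gene (log axis) in Cy5 (left) and Cy3 (right), with oxaliplatin arrays before vehicle arrays and lines joining the arrays of a group. The steepest line is that of Eml1 in Cy3 on the vehicle arrays, and levels of different probes are not comparable.

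Tubb3, the neuronal β-tubulin, was higher in Cy5 on every array. Its ratios were 1.39 and 0.88 on the oxaliplatin arrays, against 1.26 and 1.58 on the vehicle arrays, and oxaliplatin array 2 was the lowest of the 4. The mean ratio was 1.28 ± 0.10 (SE), or 2.42-fold (limma adjusted p = 9.6e-05). Oxaliplatin minus vehicle was -0.28 ± 0.20 (SE; limma adjusted p = 0.532), with the groups overlapping. Tubulin genes are close in sequence, and cross-hybridisation between them was not tested.

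Stmn2 encodes stathmin-2, a neuronal protein that binds free tubulin. The brighter of its 2 probes had ratios of 1.22 and 0.89 on the oxaliplatin arrays, against 0.96 and 1.21 on the vehicle arrays. The oxaliplatin values enclosed both vehicle values, with a difference of -0.03 ± 0.16 (SE; limma adjusted p = 0.955). The mean ratio was 1.07 ± 0.08 (SE), or 2.10-fold (limma adjusted p = 7.6e-05). The other probe had ratios of 0.87 and 1.03 on the oxaliplatin arrays, against 0.73 and 0.88 on the vehicle arrays, with a mean of 0.88 ± 0.06 (SE). Both probes therefore lay above 0 on all arrays, while the sign of their difference between groups was opposite, at -0.03 and 0.14.

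Map2, which bundles dendritic microtubules, had the most even ratios. They were 0.25 and 0.32 on the oxaliplatin arrays, against 0.26 and 0.36 on the vehicle arrays, an SD of 0.055 over the 4 arrays. The mean ratio was 0.30 ± 0.06 (SE), or 1.23-fold (limma adjusted p = 0.00507), and the difference -0.03 ± 0.12 (SE; limma adjusted p = 0.932). Tubb3, Stmn2, Prph and Map2 kept their call for Cy5 over Cy3 under all 13 alternative settings that gave a ratio.

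Tau (Mapt), which binds axonal microtubules, was lower in Cy5 by its brighter probe under loess, and higher with median centring in its place (0.49). The ratios of that probe were -0.18 and -0.21 on the oxaliplatin arrays, against -0.29 and -0.35 on the vehicle arrays. The groups did not overlap, and the oxaliplatin values were the nearer to 0. The mean ratio was -0.26 ± 0.06 (SE; limma adjusted p = 0.00777), which did not pass without vehicle array 2 (-0.24, adjusted p = 0.0631). Oxaliplatin minus vehicle was 0.13 ± 0.11 (SE; limma adjusted p = 0.619).

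The other Mapt probe pointed the opposite way in the mean ratio. It had ratios of 0.60 and 0.34 on the oxaliplatin arrays, against 0.58 and -0.05 on the vehicle arrays, with a mean of 0.37 ± 0.11 (SE; limma p adjusted over probes = 0.0266). On each array it exceeded the brighter probe, by 0.78 and 0.55 (oxaliplatin) and by 0.87 and 0.30 (vehicle). The mean over both probes was 0.06 (adjusted p = 0.552), so the Mapt call rests on which probe is read. Which transcripts each probe reads was not examined. Among 2884 genes with several probes, the probes of 1015 (35.2%) disagreed in the sign of the mean ratio.

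Eml1, a microtubule-binding protein of the EMAP family, had the largest group difference of the 10 genes, and that difference lay in the Cy3 channel, which by the labels held untreated RNA. In Cy5 its signal was 8623 and 8648 on the oxaliplatin arrays, against 7861 and 7536 on the vehicle arrays. In Cy3 it was 1774 and 895 on the oxaliplatin arrays, against 9496 and 2461 on the vehicle arrays, with vehicle array 1 far above the other three. Both spots of the probe gave like values on each array (SD at most 0.067).

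The Eml1 ratios were 1.15 and 1.26 on the oxaliplatin arrays, against -1.11 and 0.68 on the vehicle arrays. The groups did not overlap, and the vehicle arrays differed from each other more than vehicle array 2 did from the oxaliplatin arrays. Oxaliplatin minus vehicle was 1.42 ± 0.50 (SE) and did not pass (limma adjusted p = 0.308, unadjusted p = 0.0262). It was 0.53 without vehicle array 1, and 2.31 without vehicle array 2, where it passed (limma adjusted p = 0.00795) with a lone vehicle array. After single-channel normalisation the difference was -0.01 ± 0.09 in Cy5 and -1.43 ± 0.60 in Cy3 (SE). The mean ratio, 0.49 ± 0.25 (SE), did not pass (limma adjusted p = 0.134), but without vehicle array 1 it was 0.94 (adjusted p = 4.7e-05).

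Across the 10 genes, 3 had a higher and 7 a lower ratio in the oxaliplatin group, where 51.2% and 48.8% of all genes did. The median difference was -0.03, beside 0.01 over all genes. An unadjusted p under 0.05 was found for 1 of 10 (Eml1), where 14.6% of all genes had one. The ratios of 2 of the 10 did not overlap between groups, where those of 49.2% of all genes did not. Both were higher with oxaliplatin (Mapt and Eml1), where 27.0% of all genes were higher and 22.2% lower without overlap. For Mapt this held for the brighter probe only, and the ratios of its other probe overlapped between groups.

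**Figure D3:**
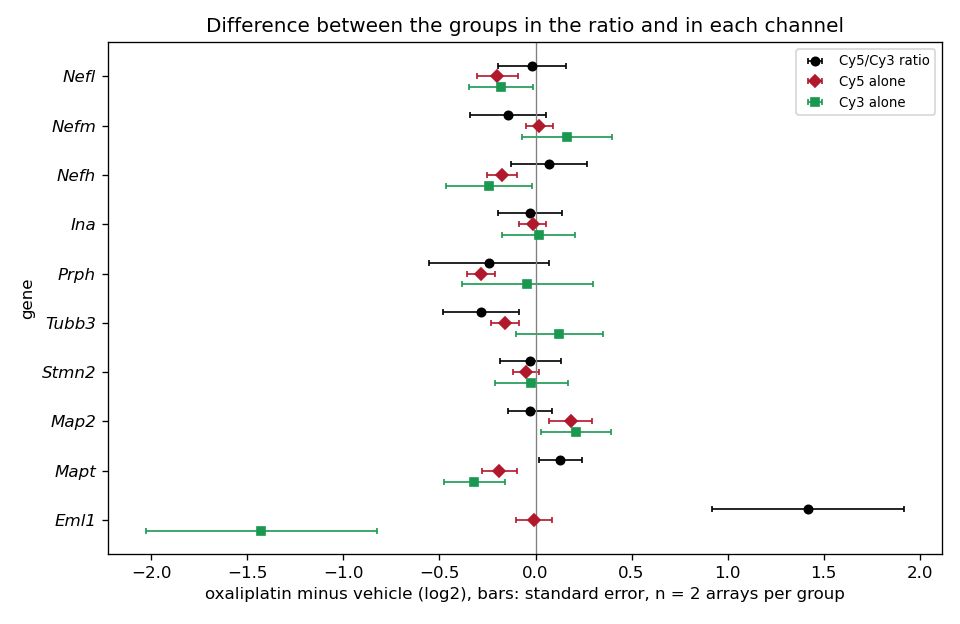
Oxaliplatin minus vehicle (log2) for the Cy5/Cy3 ratio, Cy5 alone and Cy3 alone of the 10 genes, with standard errors (n = 2 arrays per group). The Eml1 ratio lies at 1.42, with its Cy3 signal at -1.43 and its Cy5 signal at -0.01.

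Taken by channel, Cy5 varied less between arrays than Cy3 in 10 of 10 genes, and in 75.3% of all genes. The median SD of the 10 over the 4 arrays was 0.10 in Cy5 and 0.23 in Cy3, beside 0.13 and 0.21 over all genes. In Cy5 the treated RNAs could be set side by side only after normalisation of the single channels, which draws on both channels. There 8 of 10 genes had a lower Cy5 signal with oxaliplatin, where 50.5% of all genes did. Of the 10, 6 were lower without overlap, where 30.2% of all genes were, and 2 were higher, where 29.6% were. The 6 were Nefl, Nefh, Prph, Tubb3, Stmn2 and Mapt. Their Cy5 signal above background, before this normalisation, was not lower without overlap. For Stmn2 it was higher, at 104614 and 105230 on the oxaliplatin arrays, against 95568 and 98428 on the vehicle arrays. None of the 10 passed in Cy5, where 0% of all genes passed, and an unadjusted p under 0.05 was found for 1 of 10 in limma, where 20.5% of all genes had one.

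Prph had the lowest of these Cy5 differences. Its normalised log2 Cy5 signal was 14.73 and 14.74 on the oxaliplatin arrays, against 15.0 and 15.04 on the vehicle arrays. The difference was -0.28 ± 0.07 (SE; limma adjusted p = 0.189), so it did not pass. Before normalisation the Cy5 signals of Prph overlapped between groups. Among the neurofilament chains Nefh had 14.33 and 14.35 on the oxaliplatin arrays, against 14.47 and 14.56 on the vehicle arrays (-0.17 ± 0.08, SE; limma adjusted p = 0.286). Nefl differed by -0.20 ± 0.11, Mapt by -0.19 ± 0.09, Tubb3 by -0.16 ± 0.07 and Stmn2 by -0.05 ± 0.07 (SE). The 2 higher genes were Nefm, by 0.02 ± 0.07 (SE), and Map2, which had 13.91 and 13.88 on the oxaliplatin arrays, against 13.84 and 13.58 on the vehicle arrays.

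In Cy3, where every array held RNA described as untreated, 6 of 10 genes were lower with oxaliplatin, where 52.1% of all genes were. Of the 10, 2 were lower without overlap (Mapt and Eml1), where 31.3% of all genes were, and 0 were higher, where 26.9% were. The Mapt difference in Cy3 was -0.32 ± 0.16, beside -0.19 ± 0.09 in Cy5 (SE). For Mapt both channels were thus lower on the oxaliplatin arrays, Cy3 by more than Cy5. Of the 10 genes, 0 passed in Cy3 and 0 had an unadjusted p under 0.05 in limma, where 0% and 20.9% of all genes did.

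By mean ratio the order was Prph, Tubb3, Stmn2, Eml1, Map2, Nefm, Nefl, Nefh, Ina and Mapt. Prph stood apart, its lowest array (2.23) above the highest of Tubb3 (1.58). Tubb3 and Stmn2 overlapped, and the lowest Stmn2 array (0.89) lay above the highest Map2 array (0.36). Map2, Nefm and Nefl overlapped in range, as did Nefh and Ina, and Eml1 spanned most of the order. With median centring in place of loess all 10 were called higher in Cy5, where 33.6% of all genes were, with a median of 0.79. The 10 genes are bright, between the 76.6th and 98.8th percentile of signal, and the brightest 10% of all genes had a median ratio of 0.63 with median centring and 0.02 with loess.

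**Figure D4:**
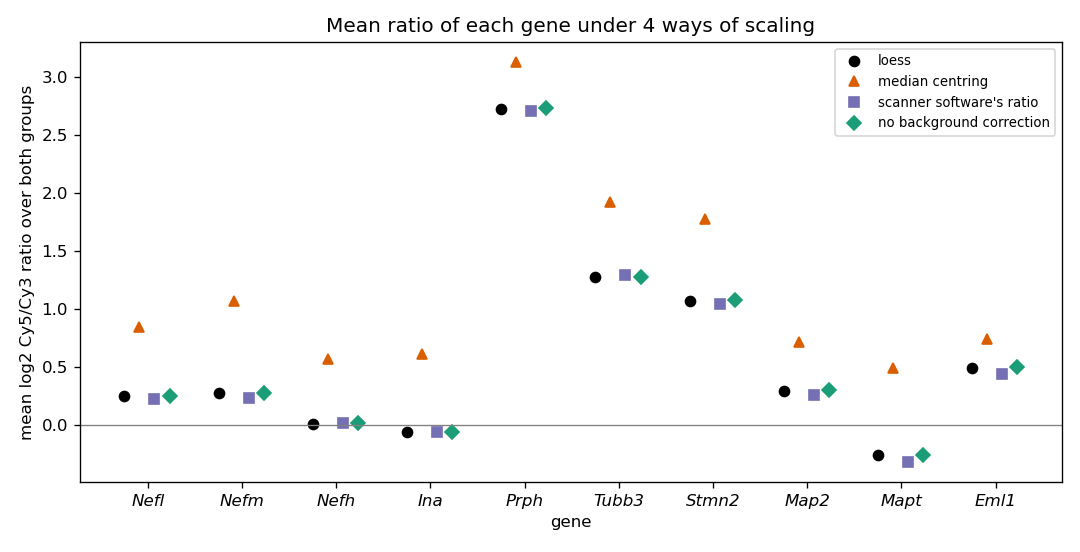
Mean log2 Cy5/Cy3 ratio of the 10 genes over both groups with loess, median centring, the scanner software's ratio and no background correction. Median centring gives the highest value for each gene, and Ina and Mapt lie below 0 with the other 3 ways.

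Other genes of the neuronal cytoskeleton were split in direction. The shares of all genes beside which the counts stand were 29.3% higher and 26.3% lower under loess, 33.6% and 27.4% with median centring, and 23.8% and 30.7% with the scanner software's ratio. Of 12 tubulins, 7 were higher and 3 lower in Cy5 under loess, and 9 were higher and 1 lower with median centring. Tubb2a, a β-tubulin abundant in brain, had a mean ratio of 1.24 ± 0.08, and Tuba8, an α-tubulin, -1.03 ± 0.06 (SE). Tubb3 therefore shared its direction with most of the tubulins measured. Their median was 0.31, below that of Tubb3.

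Of the other stathmins, 2 of 3 listed were measured, with 0 higher and 1 lower under loess and 1 higher and 1 lower with median centring. The lower was Stmn4, a neuronal stathmin, at -1.40 ± 0.06 (SE). Other intermediate filaments had 3 of 10 higher and 4 lower, among them Vim, the vimentin of mesenchymal and glial cells, at 1.84 ± 0.12 and Gfap, the astrocyte filament, at -1.75 ± 0.12 (SE). Of 14 measured microtubule-associated proteins, 6 were higher and 6 lower under loess, and 9 higher and 2 lower with median centring. They held Dclk1, a doublecortin-like kinase, at 1.39 ± 0.09, and Map7, which recruits kinesin-1, at -1.21 ± 0.09 (SE). Eml2, a relative of Eml1, had a mean ratio of -0.78 ± 0.06 (SE).

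Enzymes that cut or modify microtubules had 3 of 9 measured higher and 2 lower under loess, and 2 higher and 3 lower with the scanner software's ratio, with Ttl, the tubulin tyrosine ligase, at 0.66 ± 0.07 (SE). Axonal motors and adaptors had 2 of 10 higher and 4 lower under loess, and 5 higher and 3 lower with median centring. Dync1i1, a dynein intermediate chain, had a mean ratio of 0.81 ± 0.08 and Mapk8ip3, a kinesin adaptor, -0.62 ± 0.09 (SE). Of 5 measured spectrin and plectin linkers, 1 was higher and 2 lower under loess, and 3 higher and 0 lower with median centring.

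Kinases and phosphatases that act on tau and neurofilaments had 6 of 12 higher and 2 lower under loess, and 2 higher and 2 lower with the scanner software's ratio. Cdk5r1, the p35 activator of Cdk5, had a mean ratio of 0.87 ± 0.13 (SE). Of 8 genes of axon injury and degeneration, 6 were higher and 2 lower. Sprr1a and Atf3, both induced in injured sensory neurons, had mean ratios of 1.63 ± 0.08 and 1.45 ± 0.10, and Nmnat1, a nuclear NAD-synthesising enzyme, -1.01 ± 0.06 (SE). The means of the genes named in these lists kept their direction and their side of the threshold under all 13 alternatives. Their size moved by over 1.5 times for Dync1i1 (0.27 as a mean over probes, 1.51 with median centring), Tubb2a (at most 2.12), Sprr1a (at most 2.75), Map7 (-0.74 nearest to 0) and Eml2 (-0.51 nearest to 0).

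Between groups, 0 genes of these 9 lists passed, where 0% of all genes did. The difference was above 0 for 8 of 14 microtubule-associated proteins, 8 of 12 kinases and phosphatases, 6 of 8 axon injury genes and 6 of 12 tubulins. Nes, the nestin of progenitors, differed by 0.48 ± 0.13, Tubb4a, an oligodendrocyte and neuronal β-tubulin, by 0.57 ± 0.17, Eml2 by -0.44 ± 0.11 and Atf3 by 0.67 ± 0.20 (SE; limma adjusted p = 0.294, 0.296, 0.294 and 0.296). Without oxaliplatin array 1 the difference was 0.80 for Tubb4a and 0.91 for Atf3, with a lone oxaliplatin array. In Cy5 alone the difference was -0.24 for Nes, 0.11 for Tubb4a, -0.27 for Eml2 and 0.33 for Atf3. None of these 4 passed in Cy5 (limma adjusted p = 0.262, 0.399, 0.210 and 0.218), where 0% of all genes passed. In Cy3 the differences were -0.72, -0.46, 0.17 and -0.34 in the same order.

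Markers of neurons and of other cell types in the tissue also differed between the channels. Pan-neuronal markers had 5 of 9 measured higher and 2 lower in Cy5 under loess, with a median mean ratio of 0.45, and 8 higher and 1 lower with median centring, with a median of 0.79. Under loess the array medians were 0.55 and 0.76 on the oxaliplatin arrays, against 0.32 and 0.17 on the vehicle arrays. Before normalisation their summed Cy5 signal was 556544 to 562897 on the oxaliplatin arrays and 536886 to 557187 on the vehicle arrays. In Cy3 the sum was 66864 to 119031 on the oxaliplatin arrays and 152384 to 181025 on the vehicle arrays. Such sums also follow the brightness of the channel, and Cy5 was brighter by median spot signal on every array. The oligodendrocyte list, lower in Cy5 by ratio, summed to 321390 and 361065 in Cy5 on the oxaliplatin arrays, and 235523 and 136102 in Cy3. On the vehicle arrays it summed to 298445 and 327210 in Cy5, and 363096 and 355609 in Cy3. The pan-neuronal order of arrays differed from that of the neurofilament chains, which were highest on vehicle array 2 and oxaliplatin array 1.

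Among glial markers, all 8 oligodendrocyte markers were lower in Cy5 under loess, 5 of them with median centring, with a median mean ratio of -1.43. Mog, a myelin surface protein, was at -1.42 ± 0.07 (SE) under loess and at -0.88 in the alternative nearest to 0. Astrocyte markers had 6 of 8 lower and 1 higher under loess, with a median of -0.88, and 4 lower and 2 higher with median centring, with a median of -0.25. Microglial markers had 4 of 7 lower and 1 higher under loess, with a median of -0.44, and 3 lower and 2 higher with median centring, with a median of -0.18. Markers of dorsal horn excitatory neurons had 3 of 6 measured higher and 2 lower, and inhibitory neurons 1 of 7 higher and 4 lower under loess, and 3 higher and 1 lower with median centring. Skeletal muscle markers had 1 of 5 measured higher and 1 lower under loess, and 0 higher and 3 lower with median centring. Erythrocyte markers had 1 of 3 higher and 0 lower, but 0 higher without oxaliplatin array 1 or without vehicle array 1 (medians of -0.02 and 0.03), and 3 higher without oxaliplatin array 2 (median 0.66). The part of these cell types in the ratios of the 10 genes was not tested.

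**Figure D5:**
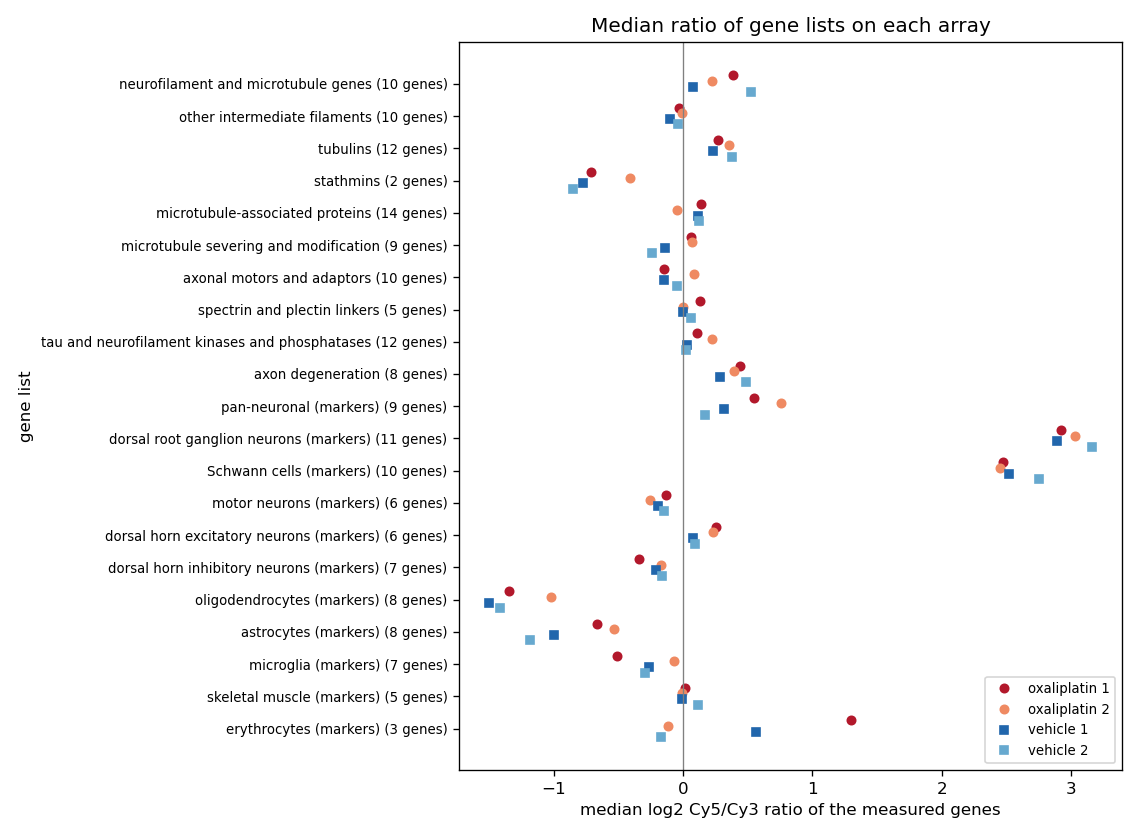
Median log2 Cy5/Cy3 ratio of each gene list on each array, with circles for oxaliplatin and squares for vehicle. Dorsal root ganglion and Schwann cell markers lie between 2.45 and 3.16 on all 4 arrays, and oligodendrocyte and astrocyte markers lie below 0.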

How the data were processed

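Per the file headers, the deposited scanner files hold the median intensity of each spot and its local background in both channels, the scanner software's log10 ratio of Cy5 over Cy3, and other values such as flags for spots above background, saturated or outlying. The software is Agilent Feature Extraction, version 8.5.1.1 per the submitters' processing notes and 10.7.1.1 per the file headers. The deposited value table matched the scanner log10 ratio (largest gap 0.0050), with medians of -0.00277, 0, -0.00492 and -0.00316 for oxaliplatin 1 and 2 and vehicle 1 and 2. Promoters carry the RefSeq build GRCr8, and no other coordinates are used.

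Signals were corrected by normexp (offset 50) and log2 ratios normalised by loess within arrays in limma 3.58.1 under R 4.3.3. Control spots (4259 per array) and outlier spots (1730) were left out, and spots of a probe averaged. Probes (25998 kept of 30367) needed Cy5 well above background on at least 2 arrays, in at least 0.5 of their spots. They were named by accession (18758 with a symbol), and the brightest probe stood for each of 22817 genes. Single channels were normalised by loess and Aquantile. The fit (lmFit, eBayes, two-sided, residual df 2, prior df 4.74) used Benjamini-Hochberg adjustment at 0.05. Its p-values rest on the spread between 2 arrays per group, drawn by eBayes towards a value fitted over all genes. Where 1 array was left out, its group's lone array was assumed to vary like the other group. On simulated data of 22817 genes the fit recovered 72% of 2-fold and 96% of 4-fold differences between groups (6 unchanged genes called). For Cy5 over Cy3 it recovered 98% and 100% (10 called). The simulation changed only 100 genes at each fold and drew noise independently for each gene. The real arrays had 55.6% of genes called for Cy5 over Cy3 and 0% between groups. The simulated shares therefore do not show how many real differences between groups could be found.

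Replicate numbers were tested for pairing, and replicate deviations of the groups correlated at -0.22. The 10 genes were named whatever their values, with up to 4 genes of each list with the smallest unadjusted p, except that some are not reported here. Genes and lists were chosen with earlier results of these data known. Alternatives covered background correction, scaling, source of the ratio, filters, probes, replicates and channels. Columns left unmapped numbered 0.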

Additional observations from a re-analysis of the deposited data

Results flagged for a closer look

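Fyn, a tyrosine kinase that phosphorylates tau, had ratios above 0 on both oxaliplatin arrays (0.13 and 0.12) and below 0 on both vehicle arrays (-0.62 and -0.94). Oxaliplatin minus vehicle was 0.90 ± 0.14 (SE; limma adjusted p = 0.266). By channel the difference was -0.32 in Cy5 and -1.23 in Cy3. Kif5a, the neuronal kinesin that carries neurofilaments, lay on opposite sides of 0 in the same way, with 0.05 and 0.57 on the oxaliplatin arrays and -0.19 and -0.48 on the vehicle arrays. Its difference was 0.65 ± 0.20 (SE; limma adjusted p = 0.300), with -0.24 in Cy5 and -0.89 in Cy3. The opposite signs of the groups were not tested as such. Both genes were flagged for their difference between groups. Over all genes the ratios of 49.2% did not overlap between groups, with oxaliplatin higher for 27.0% and lower for 22.2%. Without oxaliplatin array 1 the difference was 0.90 for Fyn and 0.91 for Kif5a, with a lone oxaliplatin array. For both genes the Cy3 channel, described as untreated RNA, differed by more than Cy5.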

How the results depend on the processing

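The number of genes called between groups, 0 of 22817 in limma (3341 at an unadjusted p under 0.05), ranged from 2 to 930 when 1 array was left out, highest without oxaliplatin array 1. It was 3 with the replicate number as a block and 537 with the numbers crossed, a pairing added after seeing the data. The labels do not say that the numbers pair samples. The median difference of the 10 genes ranged from -0.19 to 0.12 without 1 array and their median Cy5/Cy3 ratio from 0.15 to 0.37, while genes called for Cy5/Cy3 ranged from 9326 to 13210. With median centring that median was 0.79, Ina 0.61 and Mapt 0.49, and the differences of Nefl, Ina, Stmn2 and Map2 were 0.038, 0.060, 0.054 and 0.10. With ratios scaled between arrays those of Nefl, Prph, Stmn2 and Map2 were 0.010, 0.11, 0.11 and 0.016. Averaged over probes, the Stmn2 difference and the Mapt ratio were both 0.055. In Cy5 alone the difference had the other sign for Nefm (0.020), Nefh (-0.17), Map2 (0.18), Mapt (-0.19), Eml1 (-0.0087), Nes (-0.24), Kif5a (-0.24) and Fyn (-0.32). In Cy3 alone, where a lower signal raises the ratio, it did for Nefm (0.16), Nefh (-0.24), Ina (0.015), Tubb3 (0.12), Map2 (0.21), Mapt (-0.32), Eml1 (-1.43), Nes (-0.72), Tubb4a (-0.46), Eml2 (0.17), Kif5a (-0.89), Fyn (-1.23) and Atf3 (-0.34). Without 1 array the differences ranged from -0.24 to 0.21 (Nefl), -0.36 to 0.076 (Nefm), -0.20 to 0.34 (Nefh), -0.63 to 0.15 (Prph), -0.20 to 0.14 (Ina), -0.19 to 0.14 (Stmn2) and -0.083 to 0.025 (Map2), and the mean ratios from -0.13 to 0.15 (Nefh) and -0.15 to 0.021 (Ina). The Nefl call for Cy5/Cy3 was lost in 5 of 13 alternatives. The cause of these changes was not tested.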
